A study of Homo sapiens with 24 samples.

Results

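The mRNA levels of 7 genes of peroxisomal fatty acid (FA) oxidation were followed in MB468 and MB468res-R8 cells: ABCD3, ACOX3, HSD17B4, ACAA1, SCP2, ACOT8, and PEX11A. They were taken by gene symbol, 7 of the 26645 gene entries of the count table, and all 7 passed the filter on low counts that left 14741 genes for testing. Between 72 (PEX11A) and 5813 (HSD17B4) reads were counted on them in any library. ABCD3 and ACOX3 also stand among the genes the study picked for their fall in MB468 from these same libraries, so their fall in that line is no independent evidence of a direction. All 7 were chosen with earlier results of these data known, so the set as a whole is a description of these libraries.

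MB468 (MDA-MB-468) is a triple-negative breast cancer line of metastatic breast epithelial cells that needs methionine (Met) to proliferate, and MB468res-R8 is 1 revertant clone of it, obtained by long culture with homocysteine (Hcy), the precursor of Met, in place of Met. Poly(A) RNA of 24 samples was sequenced, 3 in each of 8 groups: for each line, 0 h stands for Met+ medium (100 µM Met), and 0.5, 2, and 12 h count from the change into Met-Hcy+ medium (370 µM Hcy, free of Met). All groups shared dialyzed serum, vitamin B12, and glutamine in the medium. No sample was taken 0.5, 2, or 12 h after a change into fresh Met+ medium. At each of these times the lack of Met, the time since the switch, and the change of medium itself cannot be told apart. Whether samples of a group were separate cultures is not stated in the labels. The p-values set a difference against the spread between these samples, estimated over all 24, which need not be the spread between cultures.

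Peroxisomes shorten FAs that mitochondria handle poorly, such as very long and branched chains, by cycles of beta-oxidation. In each cycle an oxidase passes electrons directly to oxygen, which makes hydrogen peroxide, a bifunctional enzyme hydrates and dehydrogenates the chain, and a thiolase releases acetyl-CoA or propionyl-CoA. The pathway is best known from liver, where peroxisome proliferator-activated receptors (PPARs) raise many of its genes and where it also trims the side chain of bile acid precursors.

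The libraries held between 11713037 and 36402932 gene counts (median 20452797), and added spike-in RNAs took 0.201 to 0.303% of the counts. In MB468 replicate 2 at 2 h, 14 listed RNAs without a poly(A) tail reached 1816 CPM (counts scaled to the library's total), against 24.8 to 64.5 in the other 23 libraries. The calls among the 7 genes at 2 h are given with and without it. All 5 epithelial markers were expressed in both lines, and their summed level was 2771 to 4778 CPM across MB468 libraries and 4989 to 6024 CPM across MB468res-R8 libraries. PGR was at or near 0, as the triple-negative label implies, while ESR1 was listed at 4.07 to 22.1 CPM. Of 10 leukocyte, endothelial, and fibroblast markers, 5 passed the filter and the list summed to 23.05 to 45.7 CPM in MB468 and 40.2 to 84.0 in MB468res-R8, most of it COL1A1, with PTPRC, CD3E, DCN, and LUM at or near 0. The part of these differences between the lines in the results was not tested. In such bulk samples fewer cells with a transcript and less of it per cell cannot be told apart.

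Levels are given as normalized counts (counts scaled by edgeR's TMM effective library size to the mean of all libraries), with mean ± SD. Changes are log2 fold changes ± standard error (SE) from edgeR's quasi-likelihood test, and a gene is called where p, adjusted by Benjamini-Hochberg over all 14741 genes, is below 0.05. Between genes, levels were compared only per kb of the MANE Select transcript. On that scale the mean level in MB468 at 0 h was 1304 normalized counts per kb for HSD17B4, 699 for SCP2, 593 for ABCD3, 480.0 for ACOT8, 402 for ACAA1, 152 for ACOX3, and 61.5 for PEX11A. In MB468res-R8 at 0 h the order differed only for ACOT8 and ACAA1, with 1397 for HSD17B4, 861 for SCP2, 629 for ABCD3, 390.1 for ACAA1, 354 for ACOT8, 116 for ACOX3, and 92.0 for PEX11A. The enzyme of the middle of the cycle was thus the most abundant transcript per kb in both lines at 0 h. The division factor PEX11A was the least abundant at 0 h, while at 12 h it stood above ACOX3 (163 against 76.5 in MB468, 140 against 75.6 in MB468res-R8).

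At 12 h in Met-Hcy+ medium, all 7 genes were called in MB468, 6 lower and 1 higher, where 70.8% of all tested genes were called. The 6 lower ones, ABCD3 and the enzymes ACOX3, HSD17B4, ACAA1, SCP2, and ACOT8, stood at 45.6 to 69.0% of their 0 h level. PEX11A alone rose, to 2.68 times its 0 h level. In every case the 3 libraries at 12 h did not overlap the 3 at 0 h, as for 74.9% of all tested genes, and the median log2 fold change of the 7 was -0.74 against 0.01 for all genes. In MB468res-R8 at 12 h, 6 of the 7 were called, 5 lower and 1 higher, where 61.3% of all genes were, and the median was -0.19 against -0.02. Tested directly, the 12 h response differed between the lines for all 7, against 56.5% of all genes. The log2 fold changes of the 6 genes other than PEX11A were less negative in MB468res-R8, where that of SCP2 was not called, and PEX11A rose less. Scaling on the spike-ins moved the median of all genes to -0.23 in MB468 and left it at 0.00 in MB468res-R8. The 7 calls in MB468 and the 7 differences between the lines held under it, but ABCD3, HSD17B4, and ACAA1 were then not called in MB468res-R8 (adjusted p = 0.562, 0.0813, and 0.321 from edgeR's quasi-likelihood test).

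**Figure D1:**
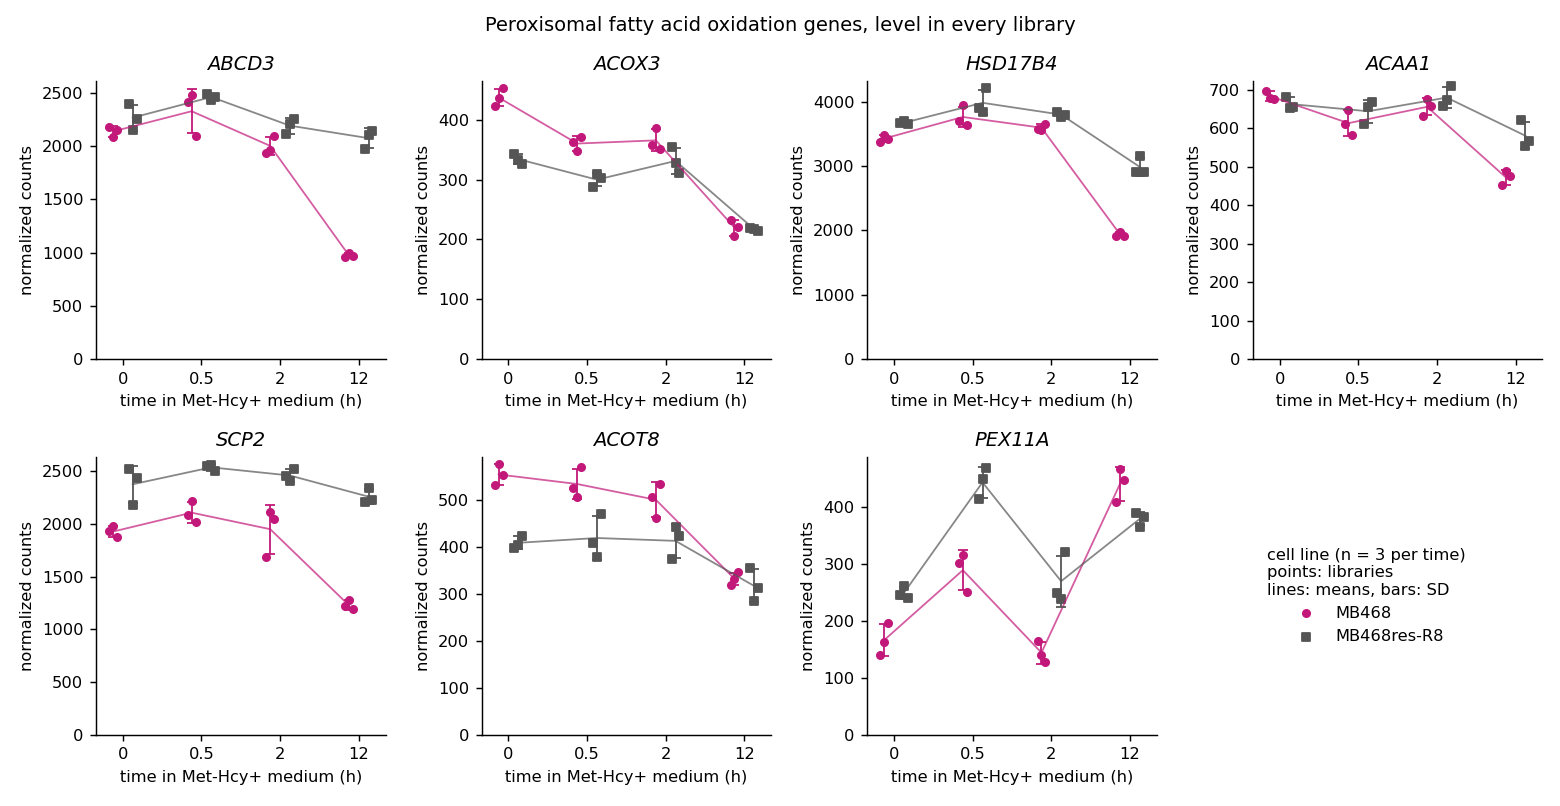
Normalized counts (linear vertical axes from 0) of the 7 genes in every library, against the time in Met-Hcy+ medium in h (evenly spaced categories), for MB468 (circles) and MB468res-R8 (squares), with means as lines and SD as bars (n = 3). The MB468 libraries at 12 h lie at 959 to 998 for ABCD3, below all other libraries, while those of PEX11A at 12 h, 408 to 467, lie above all MB468 libraries at 0 h.

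ABCD3 (chromosome 1, 94418389 to 94518666 on the plus strand of GRCh38, 23 exons and 3604 bases in the MANE Select transcript) is a transporter of the peroxisomal membrane that brings long and branched chain acyl-CoAs and bile acid precursors into the organelle. In MB468, ABCD3 had 2182, 2082, and 2150.1 normalized counts at 0 h, 2410.0, 2479, and 2095 at 0.5 h, 1940.2, 1968, and 2098 at 2 h, and 959, 998, and 968 at 12 h. In MB468res-R8 the libraries had 2397, 2156, and 2250.3 at 0 h, 2489, 2431, and 2464 at 0.5 h, 2109.9, 2209.9, and 2257 at 2 h, and 1971, 2107, and 2147 at 12 h. The 3 MB468 libraries at 12 h were below all others, whose groups overlapped from neighbor to neighbor in the order of levels. The mean fell in MB468 from 2138 ± 51.1 to 975 ± 20.2 (log2 fold change -1.13, SE 0.0523, adjusted p = 7.22e-22), and in MB468res-R8 from 2267 ± 121 to 2075 ± 91.8 (-0.13, SE 0.0503, adjusted p = 0.0233). The smaller fall was no longer called without MB468res-R8 replicate 1 at 0 h (-0.06, adjusted p = 0.329) or replicate 1 at 12 h (-0.07, adjusted p = 0.264). The difference between the lines was 1.004 (SE 0.0725, adjusted p = 3.89e-15). At 0 h the lines were not called different (0.09, 95% interval -0.01 to 0.19, adjusted p = 0.144), and at 12 h MB468res-R8 had 2.13 times the level of MB468.

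The 250 bases before the annotated start of ABCD3, from RefSeq on GRCh38.p14, are shown because it was the gene of the 7 with the largest difference between the lines at 12 h. Capitals mark GGGCGG on either strand, a GC box bound by Sp factors. It matched 4 times, at 122, 58, 33, and 11 bases before the start:
ABCD3, chr1:94418139-94418388, plus strand: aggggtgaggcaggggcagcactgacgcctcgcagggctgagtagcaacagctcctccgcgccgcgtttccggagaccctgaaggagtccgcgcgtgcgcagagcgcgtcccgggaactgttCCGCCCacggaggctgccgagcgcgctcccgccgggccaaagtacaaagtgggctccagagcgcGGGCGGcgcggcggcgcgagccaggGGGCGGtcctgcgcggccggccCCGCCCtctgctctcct

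ACOX3 (chromosome 4, 8366282 to 8440723 on the minus strand, 18 exons, 2872 bases) is an acyl-CoA oxidase that takes the first step of the cycle on branched chain FAs. In MB468, ACOX3 had 423, 437, and 453 normalized counts at 0 h, 362, 348, and 371 at 0.5 h, 358, 387, and 352 at 2 h, and 233, 206, and 221 at 12 h. MB468res-R8 had 343, 333, and 327 at 0 h, 288, 309.8, and 302 at 0.5 h, 355, 327, and 311 at 2 h, and 219.9, 218, and 214 at 12 h. MB468 at 0 h lay above every other group, and the 12 h groups of both lines overlapped each other at the bottom. The fall was from 437 ± 14.95 to 219.8 ± 13.4 in MB468 (log2 fold change -0.98, SE 0.0795, adjusted p = 3.08e-14) and from 334 ± 7.89 to 217 ± 2.84 in MB468res-R8 (-0.62, SE 0.0838, adjusted p = 2.87e-08), with a difference of 0.36 (SE 0.116, adjusted p = 0.00746). MB468res-R8 started at 76.7% of the MB468 level (-0.38, SE 0.0788, adjusted p = 7.36e-05). At 12 h the difference was -0.02 (95% interval -0.19 to 0.15, adjusted p = 0.816). The gene span of ACOX3, introns included, shares 4584 bases with that of TRMT44 on the opposite strand. The library kit does not mark strand, and how many reads fell in the shared bases was not measured. TRMT44 rose in MB468 at 12 h by 1.42 (adjusted p = 3.80e-18) where ACOX3 fell.

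ACOX3 has annotated starts at 8440723 and 8428448, and both are shown because it was the only 1 of the 6 genes in the RefSeq promoter table with TGACGTCA, the palindromic cAMP response element, marked here in capitals. The element ended 23 bases before the first start and 63 before the second:
ACOX3, first start, chr4:8440724-8440973, minus strand: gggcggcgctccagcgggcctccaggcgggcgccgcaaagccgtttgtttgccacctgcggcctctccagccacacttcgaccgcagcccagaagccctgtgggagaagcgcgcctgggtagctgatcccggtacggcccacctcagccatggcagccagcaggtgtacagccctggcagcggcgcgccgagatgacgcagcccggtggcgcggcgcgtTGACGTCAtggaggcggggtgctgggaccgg
ACOX3, second start, chr4:8428449-8428698, minus strand: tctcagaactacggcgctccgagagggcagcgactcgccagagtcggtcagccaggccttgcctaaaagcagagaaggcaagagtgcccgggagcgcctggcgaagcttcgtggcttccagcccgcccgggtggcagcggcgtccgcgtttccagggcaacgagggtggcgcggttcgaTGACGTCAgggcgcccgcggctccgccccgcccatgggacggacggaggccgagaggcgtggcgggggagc

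The first of these windows lies within TRMT44 and the second within ACOX3 itself. Of all 35116 promoters in the table, 1.65% held TGACGTCA in the same 250 bases.

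HSD17B4 (chromosome 5, 119452465 to 119637199 on the plus strand, 24 exons, 2628 bases) is the D-bifunctional protein, which carries out the hydratase and dehydrogenase steps on very long and branched chains. HSD17B4 had 3370.2, 3488, and 3422 normalized counts in MB468 at 0 h, 3705, 3941, and 3639.6 at 0.5 h, 3573, 3556, and 3657 at 2 h, and 1919, 1980.4, and 1909 at 12 h. In MB468res-R8 it had 3667, 3702, and 3645 at 0 h, 3898, 3843, and 4205 at 0.5 h, 3840.3, 3762, and 3792 at 2 h, and 2904, 3149.8, and 2906 at 12 h. MB468 at 12 h lay lowest, MB468res-R8 at 12 h next, and neither overlapped any other group. HSD17B4 fell from 3427 ± 59.3 to 1936 ± 38.5 in MB468 (log2 fold change -0.83, SE 0.0418, adjusted p = 1.52e-20) and from 3671 ± 28.3 to 2986 ± 141 in MB468res-R8 (-0.30, SE 0.0413, adjusted p = 5.21e-08), a difference of 0.53 (SE 0.0587, adjusted p = 4.64e-10). At 12 h MB468res-R8 had 1.54 times the level of MB468 (0.63, SE 0.0420, adjusted p = 8.30e-17).

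ACAA1 (chromosome 3, 38103129 to 38137242 on the minus strand, 12 exons, 1699 bases) is the thiolase for straight chains, which releases acetyl-CoA at the end of a cycle. In MB468, ACAA1 had 697, 677, and 675 normalized counts at 0 h, 610.5, 647, and 581 at 0.5 h, 632, 676, and 657 at 2 h, and 452, 489.7, and 475 at 12 h. The MB468res-R8 libraries had 682, 651, and 655 at 0 h, 609.8, 655, and 667 at 0.5 h, 657, 672, and 709 at 2 h, and 621, 555, and 565 at 12 h. ACAA1 moved least of the 7, with a range of group means of 1.45-fold, and only MB468 at 12 h stood below every other library. It fell from 683 ± 12.4 to 472 ± 19.0 in MB468 (log2 fold change -0.54, SE 0.0643, adjusted p = 1.28e-09) and from 663 ± 16.8 to 580.2 ± 35.3 in MB468res-R8 (-0.19, SE 0.0649, adjusted p = 0.0102). The latter fall was not called without MB468res-R8 replicate 1 at 0 h (adjusted p = 0.0868) or replicate 3 at 12 h (0.0784, both -0.15). The difference between the lines was 0.34 (SE 0.0913, adjusted p = 0.00139). ACAA1 was not called different between the lines at 0 h (-0.04, 95% interval -0.17 to 0.09, adjusted p = 0.605). At 12 h MB468res-R8 had 1.23 times the MB468 level (0.30, SE 0.0650, adjusted p = 7.37e-05), which spike-in scaling left uncalled (0.24, adjusted p = 0.137).

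SCP2 (chromosome 1, 52927276 to 53051698 on the plus strand, 16 exons, 2759 bases) encodes, from different starts, a thiolase for branched chains fused to a sterol carrier protein and the carrier protein alone, and the counts do not separate these products. SCP2 had 1931, 1978, and 1873 normalized counts in MB468 at 0 h, 2089, 2215, and 2018 at 0.5 h, 1686, 2116, and 2048 at 2 h, and 1219, 1279, and 1189 at 12 h. In MB468res-R8 the libraries had 2517, 2178, and 2433 at 0 h, 2549, 2561, and 2502 at 0.5 h, 2452, 2403, and 2524 at 2 h, and 2211, 2342, and 2223 at 12 h. The 12 h libraries of MB468 were below all others, whereas those of MB468res-R8 overlapped their 0 h group. SCP2 fell from 1928 ± 52.7 to 1229 ± 46.1 in MB468 (log2 fold change -0.65, SE 0.0577, adjusted p = 7.41e-13). In MB468res-R8 it had 2376 ± 177 and 2259 ± 72.6 and was the only 1 of the 7 not called at 12 h (-0.08, 95% interval -0.19 to 0.04, adjusted p = 0.246), though it was without replicate 2 at 0 h (-0.14, adjusted p = 0.0419). The difference between the lines was 0.58 (SE 0.0802, adjusted p = 8.53e-08), and at 12 h MB468res-R8 had 1.84 times the level of MB468 (0.88, SE 0.0572, adjusted p = 8.60e-17).

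ACOT8 (chromosome 20, 45841721 to 45857405 on the minus strand, 6 exons, 1154 bases) is a thioesterase that frees FAs and bile acids from CoA inside the peroxisome. In MB468, ACOT8 had 531, 577, and 554 normalized counts at 0 h, 525, 506, and 569 at 0.5 h, 506, 461, and 533 at 2 h, and 319, 331, and 345 at 12 h. In MB468res-R8 it had 398, 404, and 424 at 0 h, 408, 378, and 470.4 at 0.5 h, 373, 443, and 422 at 2 h, and 354, 285, and 312 at 12 h. As for ACOX3, MB468 started higher and the 12 h groups of the lines overlapped. ACOT8 fell from 554 ± 22.8 to 332 ± 12.9 in MB468 (log2 fold change -0.74, SE 0.0829, adjusted p = 2.42e-10) and from 409 ± 13.4 to 317 ± 35.0 in MB468res-R8 (-0.36, SE 0.0879, adjusted p = 0.000532), a difference of 0.38 (SE 0.121, adjusted p = 0.00696). The MB468res-R8 level was 73.6% of that of MB468 at 0 h (-0.44, SE 0.0839, adjusted p = 2.20e-05), and the difference at 12 h was -0.06 (95% interval -0.24 to 0.11, adjusted p = 0.524). SNX21, which shares 1556 bases with ACOT8 on the opposite strand, moved the other way in MB468 at 12 h (0.64, adjusted p = 4.09e-11) and fell in MB468res-R8 by 0.74 (adjusted p = 1.63e-10).

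PEX11A (chromosome 15, 89677764 to 89690783 on the minus strand, 3 exons, 2708 bases) is a membrane protein that elongates peroxisomes before they divide and is no enzyme of the cycle. PEX11A had 140.0, 163, and 197 normalized counts in MB468 at 0 h, 301, 316, and 250.1 at 0.5 h, 165, 139.9, and 128 at 2 h, and 408, 467, and 448 at 12 h. In MB468res-R8 it had 245, 262, and 241 at 0 h, 413, 449, and 468 at 0.5 h, 249, 239, and 321 at 2 h, and 389, 366, and 383 at 12 h. In both lines the libraries at 0.5 h and at 12 h were above all those at 0 h, and the libraries at 2 h overlapped those at 0 h. At 12 h PEX11A rose from 166 ± 28.6 to 441 ± 30.1 in MB468 (log2 fold change 1.42, SE 0.110, adjusted p = 7.70e-15) and from 249 ± 11.2 to 379 ± 12.2 in MB468res-R8 (0.61, SE 0.107, adjusted p = 5.54e-06). The difference between the lines was -0.81 (SE 0.154, adjusted p = 1.83e-05). At 0 h MB468res-R8 had 1.52 times the MB468 level (0.60, SE 0.117, adjusted p = 3.24e-05, but 0.29 and adjusted p = 0.133 under spike-in scaling). At 12 h its libraries lay below those of MB468 without being called (-0.21, 95% interval -0.41 to -0.01, adjusted p = 0.0541), and were called without MB468 replicate 1 at 12 h (-0.26, adjusted p = 0.0379). PLIN1, on the same strand with 1664 shared bases, had 5 to 42 counts per library and was not called in MB468 at 12 h (-0.46, adjusted p = 0.252), but was lower in MB468res-R8 (-1.26, adjusted p = 0.00312).

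The region before the start of PEX11A is shown because it was the only one of the 7 genes that rose at 12 h. It held GGGCGG at 91 and 11 bases before the RefSeq start at 89690754. That start lies inside the GENCODE gene span given above, and so does the match at 11 bases. Both matches are marked in capitals:
PEX11A, chr15:89690755-89691004, minus strand: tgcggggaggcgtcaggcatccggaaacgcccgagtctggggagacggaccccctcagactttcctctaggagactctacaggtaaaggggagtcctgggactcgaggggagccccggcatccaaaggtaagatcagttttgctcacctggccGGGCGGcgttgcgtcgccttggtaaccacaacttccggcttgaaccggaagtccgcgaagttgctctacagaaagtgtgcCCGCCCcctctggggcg

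Of the 6 genes with a promoter in the table (all but ACAA1), 5 held GGGCGG on either strand in these 250 bases, ABCD3, ACOX3, HSD17B4, SCP2, and PEX11A, against 42.6% of all 35116 promoters. The 2 figures are not alike, since a gene counts with a match at any of its starts and the share counts each start. ACOX3 and SCP2 have 2 starts each, and the second of SCP2 had 0 matches. CCAAT was found in ACOT8 only (32% of all). None of the 6 held AGGTCA, the half-site of PPAR elements (12.1% of all), TTGCATCA, an ATF4 and C/EBP composite site (0.772%), or CACGTG, an E-box (6.34%). These matches are letters in a window before the start and say nothing of binding.

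**Figure D2:**
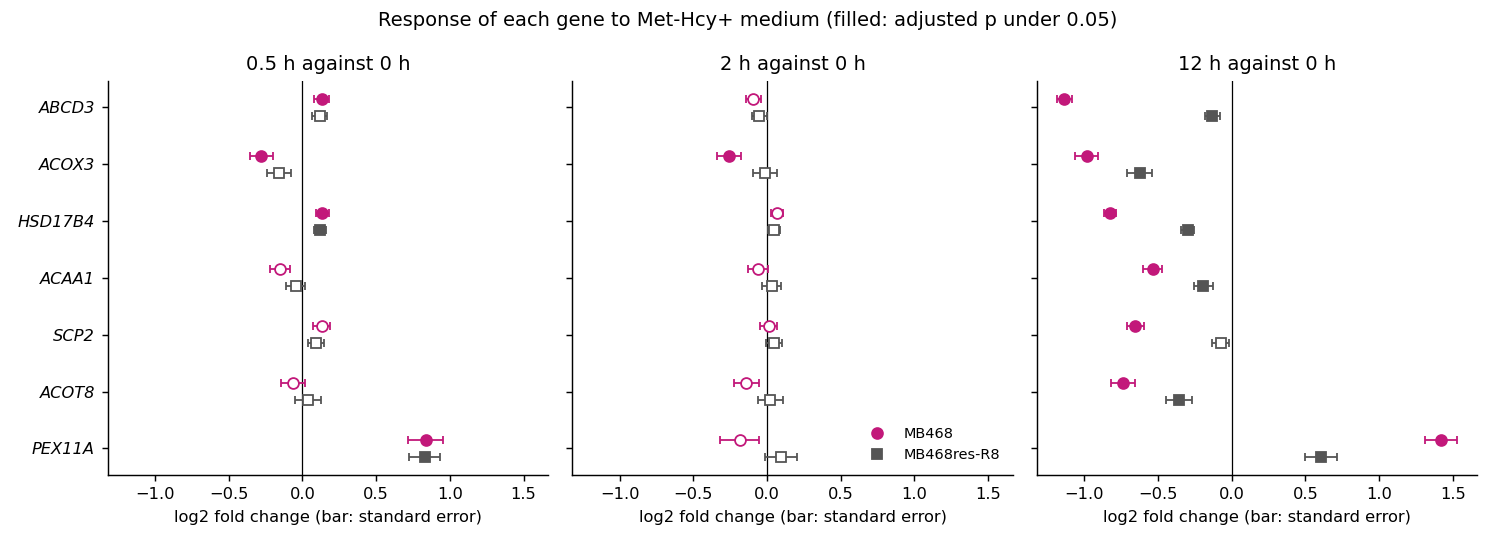
Log2 fold change against 0 h (horizontal axes, bars are SE) of each gene at 0.5, 2, and 12 h in MB468 (circles) and MB468res-R8 (squares), with filled symbols for an adjusted p under 0.05. PEX11A stands alone on the right at 0.5 h (0.84 and 0.83), at 2 h only ACOX3 in MB468 is filled (-0.26), and at 12 h the other 6 lie between -1.13 and -0.54 in MB468.

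The early times asked whether these genes moved before 12 h. At 0.5 h, 4 of the 7 were called in MB468 (33.9% of all genes), with 3 higher and 1 lower, and 2 in MB468res-R8 (33.7% of all genes), both higher. PEX11A had the largest change of the 7, from 166 ± 28.6 to 289 ± 34.7 normalized counts in MB468 (log2 fold change 0.84, SE 0.116, adjusted p = 1.83e-07) and from 249 ± 11.2 to 443 ± 27.6 in MB468res-R8 (0.83, SE 0.107, adjusted p = 3.45e-08), 1.78-fold in each. These log2 fold changes were higher than those of 97.2% and 97.3% of tested genes. The test of the difference between the lines gave -0.01 (95% interval -0.32 to 0.31, adjusted p = 0.995). HSD17B4 was higher in both lines by 0.14 and 0.12 (adjusted p = 0.00893 and 0.0243), ABCD3 in MB468 by 0.13 (adjusted p = 0.0398), and ACOX3 was lower in MB468 by 0.28 (adjusted p = 0.00491). Under spike-in scaling, which moved the median of all genes to -0.20 in MB468, HSD17B4 and ABCD3 turned to -0.08 and -0.09 there and were not called. The ABCD3 call was also lost when any of 5 of the 6 libraries was left out (adjusted p from 0.0616 to 0.328), and the HSD17B4 calls were lost without MB468 replicate 1 at 0 h (adjusted p = 0.0550) or replicate 2 at 0.5 h (0.142), and, in MB468res-R8, without replicate 1 or 3 at 0 h (0.0750 and 0.0674) or replicate 3 at 0.5 h (0.197). The ABCD3 call was lost as well with DESeq2's size factors (adjusted p = 0.0664), its Wald test (0.0730), or a minimum of 10 counts in every library (0.0589), under each of which ACAA1 was called lower in MB468 (adjusted p = 0.0438, 0.0497, and 0.0392), so that 2 of the 7 were higher and 2 lower there. In the fit of only the groups compared ABCD3 was not called either (0.0856). ACAA1 was also called in MB468 without replicate 2 at 0.5 h (-0.20, adjusted p = 0.0324), and ABCD3 in MB468res-R8 without replicate 1 at 0 h (0.16, adjusted p = 0.0307).

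At 2 h only ACOX3 in MB468 was called among the 7 (16.3% of all genes), from 437 ± 14.95 to 366 ± 18.5 normalized counts (log2 fold change -0.26, SE 0.0810, adjusted p = 0.0204). Without replicate 2 at 2 h, the library rich in RNAs without a poly(A) tail, it was -0.30 (adjusted p = 0.0163). It was not called without MB468 replicate 2 or 3 at 0 h or replicate 1 or 3 at 2 h (adjusted p from 0.0573 to 0.0944). In MB468res-R8, 0 of the 7 were called by edgeR's test and 0 had an unadjusted p under 0.05, where 4.37% of all genes were called, and DESeq2's Wald test called 0 as well. Under spike-in scaling, which moved the median of all genes in MB468 at 2 h to -0.42, all 7 were called lower there, from -0.35 to -0.68, and HSD17B4 and SCP2 turned from 0.07 and 0.01 to -0.35 and -0.41. The lines were not shown to differ in their response at 0.5 h (0 of 7 called, 2.90% of all genes, 0 at an unadjusted p under 0.05) or at 2 h (0 of 7, 5.07% of all genes, ACOX3 alone at an unadjusted p under 0.05, with 0.25 and adjusted p = 0.266). DESeq2's Wald test called 0 of the 7 in each. Without MB468 replicate 2 at 2 h, 0 of the 7 were called by edgeR for the difference at 2 h, with ACOX3 at 0.28 (adjusted p = 0.211).

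The drop of PEX11A between 0.5 and 2 h led to a further comparison, added after the data were seen. Since PEX11A prompted it, its values are a description: from 0.5 to 2 h its log2 change was -1.02 in MB468 (SE 0.125) and -0.73 in MB468res-R8 (SE 0.106), to 49.3 and 60.1% of its 0.5 h level. Without MB468 replicate 2 at 2 h PEX11A gave -1.001, ABCD3 gave -0.21 (adjusted p = 0.00552), and SCP2 was then called too (-0.17, adjusted p = 0.0365). With all libraries ABCD3 fell, by 0.22 (adjusted p = 0.000658) and 0.17 (adjusted p = 0.00716), the latter not called without MB468res-R8 replicate 1 at 2 h (adjusted p = 0.0511). The other 5 genes were not called in either line. Of the 6 genes other than PEX11A, 1 was thus called in each line, where 32.7% of all genes were called in MB468 and 35.3% in MB468res-R8. The comparisons with 0 h within a line share their 0 h libraries, and those with 0.5 h share the 0.5 h libraries with the response at 0.5 h.

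**Figure D3:**
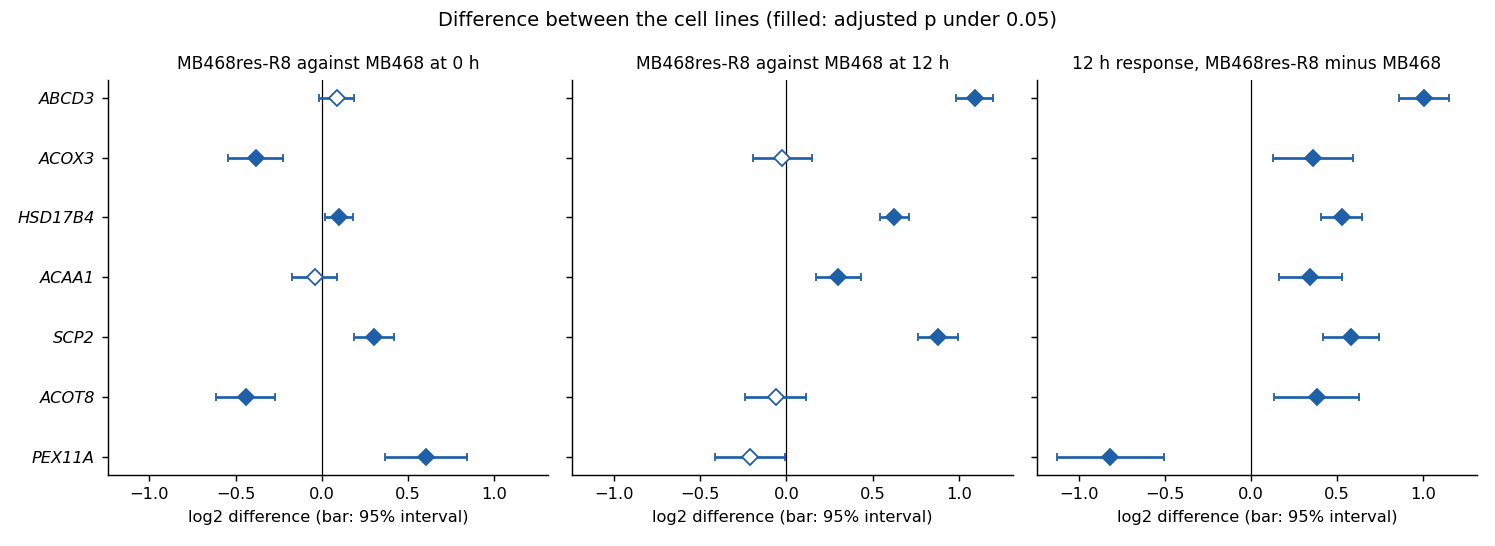
Log2 difference between MB468res-R8 and MB468 at 0 h (left) and 12 h (middle), and the MB468res-R8 response at 12 h less the MB468 response (right), for each gene, with 95% intervals as bars and filled symbols for an adjusted p under 0.05. At 12 h ABCD3, SCP2, HSD17B4, and ACAA1 are higher in MB468res-R8 (1.09, 0.88, 0.63, and 0.30), while ACOX3 and ACOT8 lie near 0, and in the right panel PEX11A is the only gene below 0.

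Between the lines at 0 h, 5 of the 7 were called (53.5% of all genes), 3 higher in MB468res-R8 and 2 lower. PEX11A and SCP2 were higher (0.60 and 0.30, the latter with SE 0.0564 and adjusted p = 2.06e-05), as was HSD17B4 by 0.10 (SE 0.0411, adjusted p = 0.0396), and ACOX3 and ACOT8 were lower. Spike-in scaling moved the median of all genes to -0.31 in this comparison, HSD17B4 to -0.21 and SCP2 to -0.01, so that 3 were called lower, ACOX3, ACOT8, and ACAA1 (-0.35, adjusted p = 0.0262), and the other 4 were not called. The HSD17B4 call was lost when any of 5 of the 6 libraries was left out (adjusted p from 0.0529 to 0.120). At 12 h, 4 of the 7 were called, all higher in MB468res-R8 (73.1% of all genes called), with a median difference of 0.30 against -0.06 for all genes. The transporter ABCD3, the bifunctional enzyme HSD17B4, the thiolase ACAA1, and SCP2, whose products the counts do not separate, made up this group. ACAA1 lost its call under spike-in scaling. With a minimum of 10 counts in every library, 4 of the 7 were called higher in MB468res-R8 at 12 h and 1 lower. The oxidase ACOX3 and the thioesterase ACOT8, lower in MB468res-R8 at 0 h, did not pass the test at 12 h. The comparisons at 12 h share the 12 h libraries with the responses.

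Over the 24 libraries the levels of ABCD3 and HSD17B4 (log2 CPM) had the highest correlation among the members, with a Pearson r of 0.951, followed by ABCD3 and SCP2 with 0.922. ACOX3 and ACOT8 correlated at 0.880. PEX11A had a negative r with each of the other 6, from -0.0934 with SCP2 to -0.772 with ACOX3. The libraries share the 8 groups, so these values describe the group pattern and not independent points. Among tested genes whose log2 CPM averaged 1 or more, those most like ABCD3 were ATP6V1A, BPNT1, and DHTKD1 (r of 0.990, 0.989, and 0.981), and those most like HSD17B4 were RTN3, ACSL1, and SCD (0.989, 0.984, and 0.982). ACSL1 is a long chain acyl-CoA synthetase and SCD the stearoyl-CoA desaturase. ACOX3 was most like CARD14, ZNF76, and C6orf223 (0.966, 0.965, and 0.964), ACAA1 like MTCH1 and STAT6 (0.945 and 0.935), SCP2 most like NRDC, PSMD10, and GBAS (0.975, 0.975, and 0.974), and ACOT8 most like ARPC1B, CCDC28B, and THEM6 (0.958, 0.957, and 0.953). PEX11A was most like ESRP1, RSPRY1, and UBR2, with r of 0.956, 0.949, and 0.949. RSPRY1, for example, had 1335 ± 42.3 normalized counts in MB468 at 0 h, 1829 ± 7.74 at 0.5 h, 1290.5 ± 46.7 at 2 h, and 2742 ± 40.8 at 12 h.

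**Figure D4:**
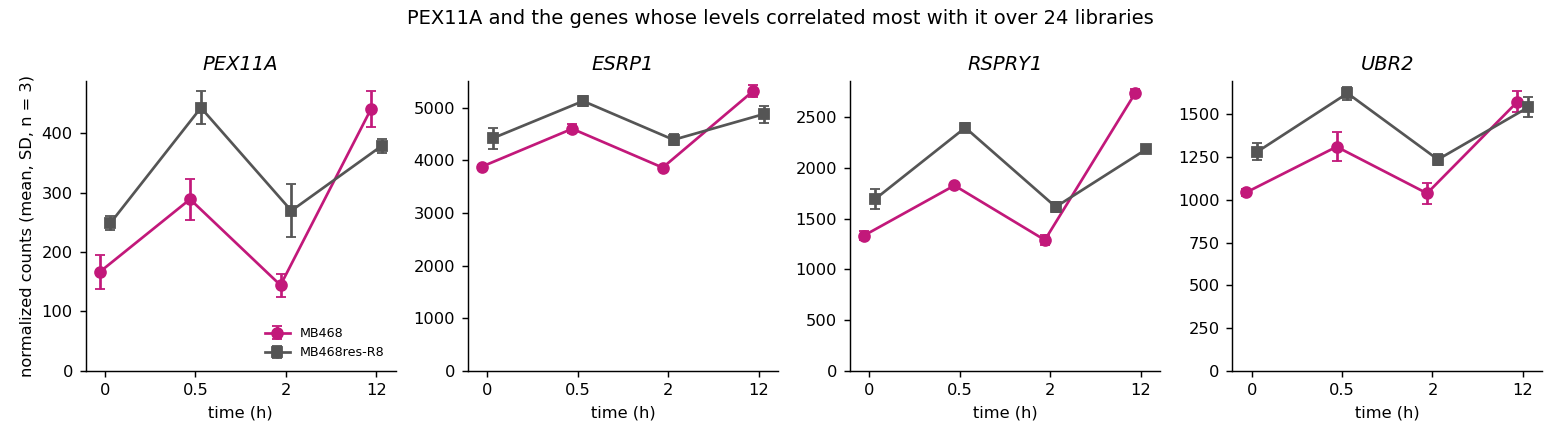
Normalized counts (linear axes from 0, mean and SD, n = 3) of PEX11A and the 3 genes whose levels correlated most with it, at 0, 0.5, 2, and 12 h (evenly spaced) in MB468 (circles) and MB468res-R8 (squares). All 4 are higher at 0.5 h than at 0 and 2 h, and for PEX11A the means at 0.5 h are 289 and 443.

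The other genes of the pathway were read from hand-written lists. Their counts stand against all tested genes, of which 36.1% were called higher and 34.7% lower in MB468 at 12 h, 30.2% higher and 31.1% lower in MB468res-R8, and 26.2% higher and 30.3% lower in the difference between the lines. In the list of other peroxisomal beta-oxidation enzymes and carriers, 19 of 26 genes were tested, and at 12 h 5 were called higher and 10 lower in MB468 (median log2 fold change -0.34) and 6 higher and 10 lower in MB468res-R8 (-0.21). ACSL1 fell in MB468 from 9677 ± 245 to 2027 ± 38.7 normalized counts (-2.25, adjusted p = 6.60e-36) and less in MB468res-R8 (-1.002). CRAT, which transfers acetyl groups to carnitine, fell in both (-2.19 and -0.91), from 1024 ± 50.3 and 137 ± 28.5 normalized counts at 0 h. ACOT4, a thioesterase at low counts, fell in both (-1.58 and -1.41). NUDT19, a hydrolase of CoA esters, rose by 0.996 and 0.73, and MLYCD, malonyl-CoA decarboxylase, rose in MB468 by 1.28 (adjusted p = 2.59e-14), as did AMACR by 0.92. ACOX2 and CROT rose in MB468res-R8 by 0.71 and 0.50. The study had picked CRAT and MLYCD for their changes in MB468 in these same libraries. Those changes are thus no independent evidence. The response differed between the lines for 10 of the 19, a share near the 56.5% of all genes. The log2 response was higher in MB468res-R8 for 8, led by CRAT (1.29), ACSL1 (1.25), and ACOX2 (1.05). It was lower for 2, MLYCD (-1.55) and NUDT19 (-0.26). For CRAT this was a smaller fall, and its level at 12 h was lower in MB468res-R8 (73.3 ± 4.04 normalized counts against 221 ± 19.9). At 0 h, EHHADH, the other bifunctional enzyme, was higher in MB468res-R8 (251 ± 13.9 against 113 ± 10.98) and CRAT lower (-2.89).

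Of the genes for alpha-oxidation, ether lipid synthesis, and peroxide removal, 15 of 16 were tested, with 13 called lower and 1 higher in MB468 at 12 h (median -0.43) and 7 lower and 4 higher in MB468res-R8 (-0.10). CAT, the catalase that breaks down the peroxide made by the oxidases, fell in MB468 from 2556 ± 121 to 1098 ± 19.2 (-1.22, adjusted p = 8.81e-26), and its response differed between the lines by 0.71. IDH1 fell in MB468 and MB468res-R8 (-0.91 and -0.72), as did PIPOX, from 14.01 and 19.6 normalized counts at 0 h (-1.71 in each). ALDH3A2 rose in both lines (0.42 and 0.37). FAR1 and AGPS, of ether lipid synthesis, rose in MB468res-R8 (0.46 and 0.38), and PRDX5 fell there by 0.51. The difference between the lines was called for 9 of the 15, again near the 56.5% of all genes, all higher in MB468res-R8 (median 0.33), with FAR1 at 0.81 and FAR2 at 0.61. At 0 h FAR2 was higher in MB468res-R8 by 1.55 and HACL1 lower (-0.65).

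Among genes for peroxisome assembly, import, and division other than PEX11A, 24 of 25 were tested, with 11 called higher and 5 lower in MB468 at 12 h (median 0.07) and 8 higher and 1 lower in MB468res-R8 (0.01), where all genes had 36.1 and 34.7%, and 30.2 and 31.1%. In MB468, PEX13, of the import machinery, rose from 707 ± 47.5 to 1253 ± 35.9 (0.83, adjusted p = 3.96e-14). PEX3 and PEX19, which insert membrane proteins, fell by 0.43 and 0.24, and PEX2 by 0.19. In MB468res-R8, GDAP1 (0.52), TYSND1 (0.39), and ACBD5 (0.38) rose and PEX10 fell by 0.18. The response differed for 12 of the 24 (56.5% of all genes), 5 higher in MB468res-R8 and 7 lower, with PEX10 (-0.72) among the lower ones and TYSND1 (0.42), PEX3 (0.37), and PEX19 (0.31) the highest. At 0 h PEX14 was higher in MB468res-R8 by 1.15 and GDAP1 lower (-1.40).

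**Figure D5:**
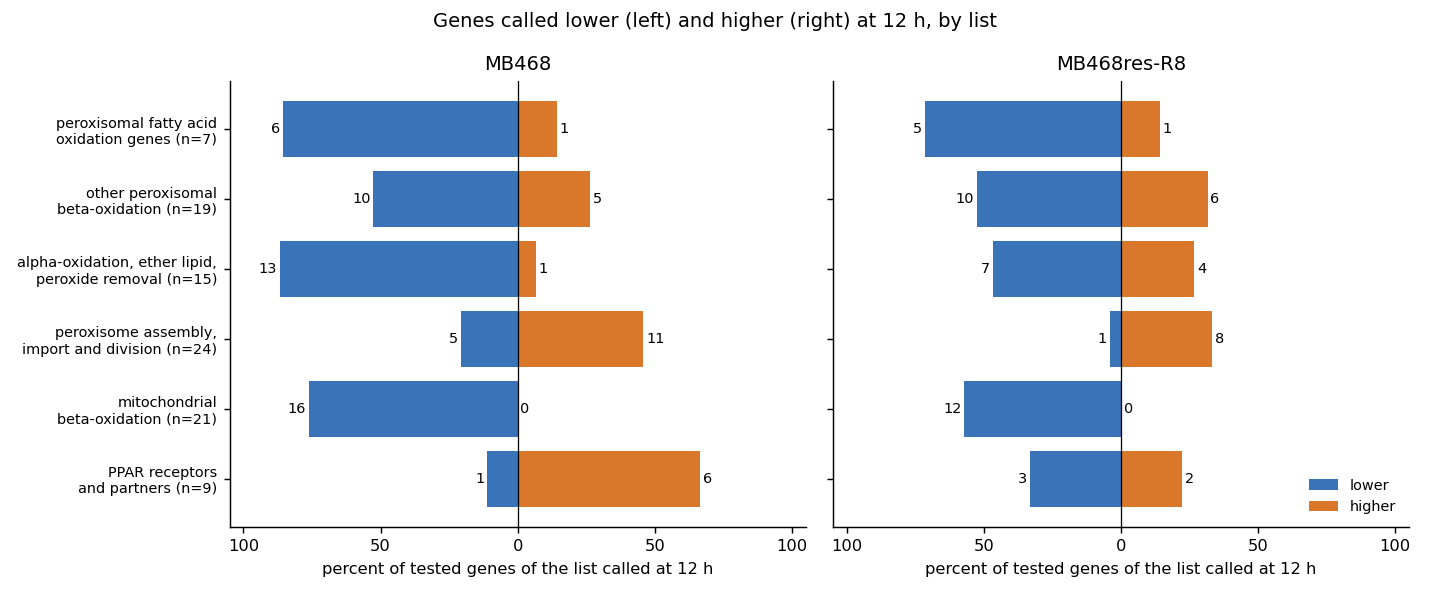
Percent of the tested genes of each list called lower (left bars) and higher (right bars) at 12 h in MB468 and MB468res-R8, with the number of genes at the end of each bar and the number tested beside the list's name. Of the 7 peroxisomal FA oxidation genes 6 and 5 are lower, while assembly, import, and division genes have 11 and 8 called higher and 5 and 1 lower. Of all tested genes 36.1 and 30.2% were called higher and 34.7 and 31.1% lower in MB468 and MB468res-R8.

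Mitochondrial beta-oxidation, which finishes the shortened chains, was listed with 22 genes, of which 21 were tested. In MB468 at 12 h 16 were called lower and the other 5 were not called (median -0.37), and in MB468res-R8 12 were lower and 9 not called (-0.23). ACADS fell in MB468 from 236 ± 28.8 to 89.6 ± 2.86 (-1.40), ACADM from 2462 ± 30.0 to 1212 ± 50.02 (-1.02), and ACAA2 by 0.94. The study had picked ACADS and ACADM for their fall in MB468 in these same libraries. Their falls in that line are thus no independent evidence. The difference between the lines was called for 16 of the 21 (56.5% of all genes), 13 higher in MB468res-R8 and 3 lower, with a median of 0.34. Of 10 genes for PPARs and their partners, 9 were tested, with 6 called higher and 1 lower in MB468 at 12 h (median 0.48) and 2 higher and 3 lower in MB468res-R8 (0.02). For the difference between the lines, 1 was higher in MB468res-R8, 4 were lower, and 4 were not called (median -0.68), against 56.5% of all genes called. NCOA1, a coactivator, rose in MB468 from 1424 ± 26.2 to 3050.5 ± 174 (1.10, adjusted p = 9.80e-23) and PPARGC1A from 71.5 ± 12.6 to 177 ± 3.30 (1.29), while PPARGC1A had 0.436 ± 0.755 in MB468res-R8 at 0 h. RXRB was also called higher, but went from 2.20 ± 1.21 to 36.4 ± 50.9, an SD above the mean. In MB468res-R8, PPARG rose by 0.34 and PPARD fell by 0.50. These lists are described by counts and medians beside the medians of all genes, which were 0.01 in MB468 and -0.02 in MB468res-R8.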

How the data were processed

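The authors sequenced poly(A) selected RNA (TruSeq RNA v2) with added ERCC spike-ins as 100 bp single-end reads, aligned them with HISAT2 2.1.0 to GRCh38 (hg38) and counted reads per gene with featureCounts (Subread 1.5.3). The strand setting and annotation release are not given in the sources used here. The deposited raw counts per gene were used. The deposited normalized values, made with RUVSeq, and the table of the authors' own DESeq2 fold changes and p-values were not used.

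Spike-ins (92 entries) were left out. In R 4.3.3 with edgeR 4.0.16, genes were filtered with filterByExpr (minimum count 10, total 15), scaled by TMM, and fitted with 1 mean per group (glmQLFit, robust) over all 24 libraries. SE is the log2 fold change over the root of F. Adjustment was by Benjamini-Hochberg over 14741 genes. No 2 libraries held identical counts. In simulated data, 200 of 14470 genes, all well counted, were changed in MB468 at 12 h by at least 2-fold, as many up as down. Of these, 100% were recovered and 10 unchanged genes called, and for the difference between the lines 95.5% (91% of those changed 2-fold) and 9. Far more genes were called in the data and many by less than 2-fold, so the simulation cannot tell how well such calls are recovered.

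The 7 genes and all lists were chosen with earlier results of these data known. From each list up to 3 called genes per direction with the largest change are eligible for naming. A few genes that these rules name are not reported here. Likeness was Pearson's r of log2 CPM (prior count 2). Loci and overlaps (of whole gene spans, introns included) are from GENCODE v44 on GRCh38, and sequences from RefSeq on GRCh38.p14, where 6 of the 7 genes matched. Alternatives were DESeq2 1.42.0 (size factors, Wald test), spike-in scaling, other filters, a fit of only the groups compared, a replicate block, and leaving out each library.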

Additional observations from a re-analysis of the deposited data

Results flagged for a closer look

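The 12 h response differed between MB468 and MB468res-R8 for each of the 7 genes by the interaction test in edgeR, and these results were picked out for that reason. As MB468res-R8 response minus MB468 response, on the log2 scale, the difference was 1.004 for ABCD3 (adjusted p = 3.89e-15), 0.58 for SCP2 (adjusted p = 8.53e-08), 0.53 for HSD17B4 (adjusted p = 4.64e-10), 0.38 for ACOT8 (adjusted p = 0.00696), 0.36 for ACOX3 (adjusted p = 0.00746), and 0.34 for ACAA1 (adjusted p = 0.00139). It was -0.81 for PEX11A (adjusted p = 1.83e-05). Over all tested genes 56.5% differed. ABCD3 and ACOX3 had been picked by the study for their fall in MB468 in these same libraries, so their differences are no independent evidence. All 7 genes were chosen with earlier results of these data known, which limits the evidence from the whole set.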

How the results depend on the processing

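All 7 calls in MB468 at 12 h and all 7 differences between the lines in the 12 h response kept their direction and call under every alternative run. Spike-in scaling moved most: the 7 genes gave 3 calls at 0 h (5 with TMM), 7 in MB468 at 2 h (1), 1 in MB468res-R8 at 0.5 h (2), 3 in MB468res-R8 at 12 h (6), and 1 in MB468res-R8 from 0.5 to 2 h (2). Calls over all genes went to 3287 in MB468 at 0.5 h (5000), 9511 at 2 h (2410), 2023, 180, and 5887 in MB468res-R8 at 0.5, 2, and 12 h (4967, 644, and 9036), 101 for the difference at 0.5 h (428), and 2380 in MB468res-R8 from 0.5 to 2 h (5207). Reversed values were HSD17B4 and SCP2 at 0 h (-0.21 and -0.00537), ABCD3 and HSD17B4 in MB468 at 0.5 h (-0.0860 and -0.0796), and HSD17B4 and SCP2 in MB468 at 2 h (-0.35 and -0.41). The share of calls that were higher changed from 49.4 to 14.98% at 0 h, from 51.8 to 14.0, 54.3 to 2.52, and 51.0 to 30.0% in MB468 at 0.5, 2, and 12 h, from 41.4 to 79.2, 43.2 to 93.0, and 46.3 to 69.9% for the differences at those times, and from 49.7 to 18.3 and 49.3 to 35.5% from 0.5 to 2 h in MB468 and MB468res-R8. Without a filter on low counts 0 of the 7 were called by edgeR in MB468 at 2 h (ACOX3 -0.26, adjusted p = 0.0686). A minimum of 10 counts in every library gave 4 higher and 1 lower call between the lines at 12 h (4 and 0 in the main fit). Leaving out 1 library gave 2 to 4 calls among the 7 in MB468 at 0.5 h, 0 to 1 at 2 h, 4 to 7 in MB468res-R8 at 12 h, 1 to 2 in MB468res-R8 at 0.5 h and from 0.5 to 2 h, and 348 to 667 over all genes in MB468res-R8 at 2 h. The cause of these changes was not tested. Replicate numbers share no stated origin, and same-numbered libraries did not deviate together over all groups (mean r -0.0199, against 0.0105 for different numbers), though the mean was 0.277 (-0.0294 to 0.466 over 3 pairs) between 0 and 2 h in MB468res-R8, so a replicate block is only an alternative, and it changed 1 call, ABCD3 in MB468 at 0.5 h (0.13, adjusted p = 0.0509). PEX11A, with 72 to 707 reads, had the largest coefficient of variation within a group, 17.2%.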
